A study of Mus musculus with 24 samples.

Results

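The integrins and laminins of the mouse colon were described across 24 messenger RNA libraries. Every gene whose symbol names an integrin alpha subunit, an integrin beta subunit or a laminin chain was taken, which gave 37 of the 23329 gene symbols in the files: 18 integrin alpha genes, 8 integrin beta genes, 5 laminin alpha genes, 3 laminin beta genes and 3 laminin gamma genes. The choice rested on names, not on measured values. All mice were C57Bl/6 and all carried VilCre, a Cre recombinase driven by the villin promoter and active in gut epithelium. The VilCre mice served as controls, and the VilCre-CMVcaNrf2 mice, called transgenic here, carried in addition caNrf2, a constantly active version of NRF2, the transcription factor of the antioxidant response. Colon wall, cut a short way above the rectum, was taken from both genotypes either untreated or after Dextran Sulfate Sodium (DSS), a chemical that injures the colon lining. Epithelial cells came from both genotypes without DSS. Each of the 6 groups had 4 libraries, although the series text speaks of triplicates. How much DSS was given and for how long, how old the mice were and how the epithelium was detached are not stated in the sources used here. The labels do not tie the libraries of a group to separate animals. Every p-value therefore reflects the spread among libraries alone, and this may be technical.

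Laminins are trimers of an alpha, a beta and a gamma chain that assemble into basement membranes, the thin matrix sheets under epithelia and around vessels, muscle fibres and nerves. Integrins are receptors made of an alpha and a beta subunit that span the cell membrane and tie this matrix, or a neighbouring cell, to the cytoskeleton. In the intestine, the laminin that holds the Lama3 and Lamb3 chains anchors epithelium through the receptor of Itga6 and Itgb4 in hemidesmosomes, while trimers with Lama2, Lama4 or Lama5 and with Lamc1 are typical of muscle, vessels and the epithelial sheet. Itgb1 is the beta subunit shared by most matrix receptors, and Itgb2 is the beta subunit of leukocytes.

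As a check of the genotype labels, Nfe2l2, which encodes NRF2, was at 105.1 to 149.5 CPM, read counts scaled to library size, in untreated control wall and at 157.0 to 240.1 CPM in untreated transgenic wall. Control epithelial cells had 135.8 to 181.0 CPM and transgenic epithelial cells 222.4 to 338.7 CPM, so the genotypes did not overlap in either tissue. Whether reads of the transgene are counted under Nfe2l2 is not stated in the sources used here. Nqo1, a target gene of NRF2, overlapped between genotypes without DSS, with 12.4 to 30.9 CPM against 22.8 to 130.0 CPM in untreated wall and 29.3 to 81.7 CPM against 63.6 to 211.6 CPM in epithelial cells. In DSS-treated wall Nqo1 did not overlap, at 6.35 to 11.7 CPM in controls and 26.9 to 125.5 CPM in transgenic mice. Of these 2 genes, only Nqo1 passed the test between genotypes, in DSS-treated wall alone (log2 fold change 3.16, SE 0.52, adjusted p = 0.0271). Total counts ran from 20232317 to 154335999 in wall and from 6683785 to 15399870 in epithelial libraries, which makes low members less precise in epithelial cells. Smooth muscle markers (8 genes) summed to 11721.9 to 16738.6 CPM in untreated wall and to 34.7 to 131.2 CPM in epithelial cells. Fibroblast markers (8 genes) summed to 1058.7 to 1325.0 CPM in untreated wall and to 7.92 to 226.1 CPM in epithelial cells. Epithelial markers (12 genes measured, none at 0) were not uniformly higher in the epithelial libraries, which summed to 10858.8 to 42958.5 CPM against 17402.6 to 30575.6 CPM in untreated wall. Control epithelial replicate 3 and transgenic epithelial replicate 1 stood apart, with epithelial sums of 39486.0 and 42958.5 CPM against 10858.8 to 17245.5 CPM in the other 6 and with endothelial sums of 12.6 and 14.9 CPM against 50.7 to 111.3 CPM, and results that rest on them are given with and without them. The epithelial sums of the other 6 lay below those of every untreated wall library, so enrichment of epithelium in these 6 is not shown by these markers. The 4 wall libraries numbered 4 have deposited files named in another way than the rest, and for that reason the fits were also run without them.

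For the question of what the NRF2 transgene does, promoters of members were searched for the core of the antioxidant response element, the site NRF2 binds (letters TGACNNNGC), and for the AP-1 site (letters TGANTCA), on both strands of the 250 bases before each start. These letters share TGA, so a match of one can overlap a match of the other. The RefSeq table used (GRCm38.p6) held 26 promoters of 23 of the 37 members. The antioxidant response element core was found in 3 of these 26 promoters (11.5%), 1 each of Itga9, Itgb1 and Itgb6. It was found in 10.2% of all 32851 promoters of the same length. A further Itgb6 promoter (chr2:60673694-60673943, minus strand) held no match. The start of the Itga9 promoter (118711692) lies inside the gene, which spans 118606709 to 118901003 on chromosome 9. The AP-1 letters were found in 1 member promoter (3.85%), that of Itgax, and in 6.75% of all. The promoters of Itgb1 (chr8:128685404-128685653, plus strand) and Itgb6 (chr2:60722604-60722853, minus strand) are shown because Itgb1 was the most abundant beta subunit and Itgb6 had the third smallest p of all members for the transgene in untreated wall. Each reads 5′ to 3′ on the strand of the gene up to the last base before the start, and capitals mark the match, which in Itgb6 lies on the opposite strand.
Itgb1: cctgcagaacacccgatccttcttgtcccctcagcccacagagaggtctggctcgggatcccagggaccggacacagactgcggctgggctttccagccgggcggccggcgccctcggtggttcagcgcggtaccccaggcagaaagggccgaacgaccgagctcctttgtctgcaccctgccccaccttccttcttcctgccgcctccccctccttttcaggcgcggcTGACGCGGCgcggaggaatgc
Itgb6: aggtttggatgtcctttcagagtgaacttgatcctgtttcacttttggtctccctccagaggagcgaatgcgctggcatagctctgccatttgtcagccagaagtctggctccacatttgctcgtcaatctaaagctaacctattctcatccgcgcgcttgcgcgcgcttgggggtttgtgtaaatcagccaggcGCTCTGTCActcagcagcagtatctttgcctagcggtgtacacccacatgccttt
A match describes letters and not a bound site.

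Levels of different genes were compared as TPM, which are corrected for transcript length and depth. In untreated control wall, the most abundant member was Itgb1 (mm10 chromosome 8, 128685654 to 128733579, plus strand) at 187.1 ± 23.4 TPM (SD, n = 4). Itga5 (chromosome 15, 103344286 to 103366748, minus strand), the fibronectin receptor subunit, followed at 138.2 ± 42.5 TPM. Lamb3 at 78.8 ± 9.85 TPM, Itga6 at 78.2 ± 9.23 TPM and Itgb4 at 61.3 ± 8.88 TPM came next and overlapped one another within these SDs. Itga3, a further laminin receptor subunit, was at 53.2 ± 9.55 TPM. At the other end stood Lama1 at 0.285 ± 0.0918 TPM, Itgb8 at 0.515 ± 0.395 TPM, Lamc3 at 0.520 ± 0.149 TPM and Itgad, a leukocyte subunit, at 0.0175 ± 0.0126 TPM. Itgad had too few counts to be tested in any comparison.

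In control epithelial cells the order of the most abundant members changed. Itgb1 was at 101.5 ± 4.42 TPM, Itga6 at 96.6 ± 18 TPM, Itgb4 at 62.3 ± 5.89 TPM, Itga3 at 51.0 ± 5.12 TPM and Lamb3 at 41.9 ± 29.5 TPM. Itga2, a collagen receptor subunit, was sixth at 29.3 ± 8.80 TPM, against rank 25 of 37 in untreated control wall. Itga5 stood at rank 10 with 11.2 ± 3.12 TPM. Transgenic epithelial cells had the same 8 members in the leading 8 places, with Itga6 at 89.3 ± 13.1 TPM and Itgb1 at 82.1 ± 13 TPM.

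**Figure D1:**
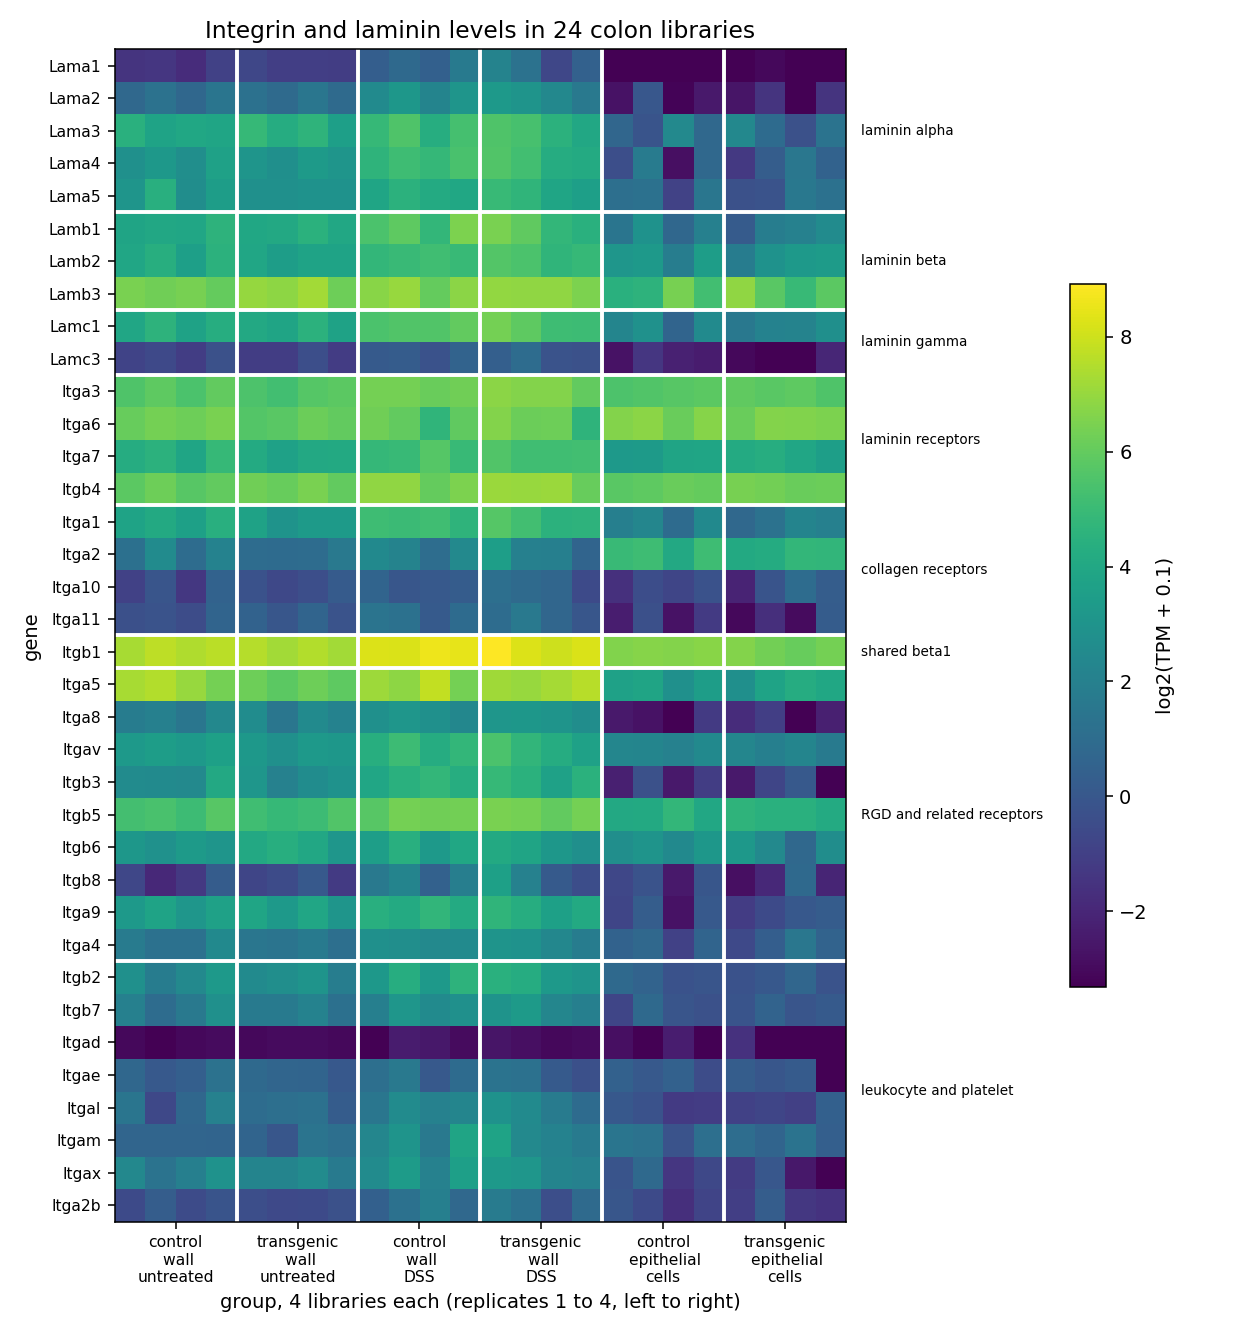
Heat map of log2(TPM + 0.1) for 36 integrin and laminin genes (rows, grouped by role) in 24 libraries (columns, 4 per group). Lama1, Itga8 and Itgb3 are dark in the epithelial libraries, where their mean is at most 0.380 TPM, while Itgb1, Itga6, Itgb4 and Itga3 are bright in every group.

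Within the TPM of the 8 beta subunits, Itgb1 made up 58.9% ± 2.75 of untreated control wall and Itgb4 19.3% ± 1.91 (SD, n = 4). In control epithelial cells Itgb1 made up 52.6% ± 2.39 and Itgb4 32.1% ± 1.48, and in transgenic epithelial cells 43.5% ± 2.23 and 40.5% ± 1.68. These shares are descriptions of composition and were not tested.

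Epithelial cells were compared with untreated wall to ask which members belong to the epithelial compartment. In controls, 24 of 36 tested members were lower in epithelial cells and 1 was higher, against 19.7% of all 15073 tested genes lower and 18.9% higher (38.6% called). The median log2 fold change was -1.52 over the members and 0.04 over all tested genes. In transgenic mice 23 of 36 were lower and 2 were higher, against 23.5% and 20% of all tested genes (43.5% called), with medians of -1.48 and -0.01. Without the epithelial libraries that stood apart, 27 members were called in controls and 26 in transgenic mice. How many of all genes were called in that fit is not given here, so no change particular to the members is read from it. In a bulk sample, fewer cells of a type and less RNA per cell cannot be told apart.

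The collagen receptor subunit Itga2 (chromosome 13, 114835912 to 114932041, minus strand) was higher in epithelial cells of both genotypes. It was at 6.13, 15.3, 5.82 and 8.66 CPM in untreated control wall and at 69.6, 79.6, 43.6 and 72.5 CPM in control epithelial cells. In transgenic mice it was at 4.92, 5.03, 4.59 and 7.57 CPM in wall and at 46.1, 41.1, 58.7 and 60.5 CPM in epithelial cells. All 8 epithelial libraries lay above all 8 wall libraries, and the fold was 8.45 in controls (log2 fold change 3.08, SE 0.30, adjusted p = 1.39e-06) and 10.3 in transgenic mice (log2 3.37, SE 0.31, adjusted p = 7.02e-07). Its other collagen-binding relatives did not follow it: Itga1 was lower in epithelial cells, 4-fold in controls (adjusted p = 3.53e-05) and 3.32-fold in transgenic mice (adjusted p = 0.000113), and with all libraries Itga10 and Itga11 passed the test in neither genotype. Itga11 did pass it in controls without epithelial replicate 2 (log2 -2.64, adjusted p = 0.0493), and in transgenic mice with the replicate number as a block (log2 -2.56, adjusted p = 0.0412) and without epithelial replicate 4 (log2 -3.78, adjusted p = 0.00203). Itga6 was at 183.7 to 224.2 CPM in control wall and 185.7 to 249.8 CPM in control epithelial cells, with a log2 fold change of 0.32 (SE 0.13, adjusted p = 0.0564, and 0.0345 without the libraries that stood apart). In transgenic mice it was at 126.1, 151.2, 172.2 and 159.1 CPM in wall and at 188.4, 220.0, 205.4 and 204.7 CPM in epithelial cells, which was higher by 1.49-fold (adjusted p = 0.00155). The tissue difference in transgene effect was not called for Itga6 (log2 0.26, SE 0.18, adjusted p = 0.758). Its hemidesmosome partner Itgb4 had log2 fold changes of 0.06 in both genotypes (SE 0.16, adjusted p = 0.811 and 0.788), and Itga3 had -0.02 in controls and 0.25 in transgenic mice (SE 0.16, adjusted p = 0.942 and 0.218).

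Members lower in epithelial cells included subunits known from stromal, muscle and vessel cells. Itga5 was at 457.3, 478.9, 407.9 and 176.6 CPM in untreated control wall and at 29.5, 33.3, 19 and 23.7 CPM in control epithelial cells. This was a 12.6-fold difference (log2 fold change -3.66, SE 0.31, adjusted p = 2.76e-07), and a 4.87-fold difference in transgenic mice (log2 -2.29, SE 0.29, adjusted p = 1.57e-05). Itga9, which binds tenascin and related ligands, was 16.2-fold lower in controls (adjusted p = 1.06e-05) and 15.4-fold lower in transgenic mice (adjusted p = 1.04e-05). Itga8, an RGD-binding subunit of smooth muscle and mesenchyme, was 41.3-fold lower in controls (adjusted p = 3.56e-05), at 11.3 to 14.8 CPM in wall and 0 to 0.922 CPM in epithelial cells. Itgb3 was 25.7-fold lower (adjusted p = 0.000125), at 20.2 to 48.4 CPM in wall and 0.296 to 2.26 CPM in epithelial cells. Itgav, the RGD-binding partner of several beta subunits, was 2.21-fold lower (adjusted p = 3.04e-05), and Itgb1 was 1.81-fold lower (adjusted p = 0.000643). Of the leukocyte subunits, Itgb2 was 5.20-fold lower in controls (adjusted p = 9.03e-05) and 5.91-fold lower in transgenic mice (adjusted p = 4.64e-05), and Itgb7, Itgal and Itgax were lower in both genotypes. The transgenic Itgal call was lost without untreated wall replicate 2 or 3 or epithelial replicate 1, 2 or 3 (highest adjusted p = 0.07). The partner of Itgb2 in macrophages and neutrophils, Itgam, was not called (log2 0.37 in controls, SE 0.37, adjusted p = 0.465). The leukocyte markers (5 genes, none at 0) summed to 55.4 to 189.9 CPM in untreated wall and 17.6 to 34.0 CPM in epithelial cells. Endothelial markers were lower for 3 of 8 genes in controls and 1 of 8 in transgenic mice, and macrophage and monocyte markers for 4 of 7 and 6 of 7. T cell markers were lower for 2 of 7 in each genotype, with 1 higher in transgenic mice. B and plasma cell markers were lower for 4 of 4 in each genotype, and neutrophil markers for 0 of 2 tested. Of 3 mast cell markers tested, 2 were higher and 1 lower in each genotype. Of 12 epithelial markers, 2 were higher and 2 lower in controls, and 2 were higher and 1 lower in transgenic mice. The part of these cell types in the lower members was not tested.

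Among the laminins, 10 of 11 were lower in epithelial cells in each genotype, and Lamb3 was the exception. Lama1 had 0 counts in the 4 control epithelial libraries and 449 in untreated control wall, which is at least 25.1-fold lower when 3 counts over the group are taken as the floor. The lower end of the 95% exact interval for the control ratio of wall to epithelial cells was 20.4 (counting error only). In transgenic mice Lama1 had 1 count in epithelial cells and 598 in wall, and the ratio of wall to epithelial cells was 112.1 (95% exact interval 20.0 to 4433.4, counting error only). The vessel and muscle chains Lama4 and Lama2 were 6.33-fold and 7.54-fold lower in controls (adjusted p = 0.0047 and 0.0115). Lamc1 was 3.83-fold lower (adjusted p = 0.000234), and Lamb1 4.38-fold lower (adjusted p = 0.000592). The alpha chain of the epithelial laminin was no exception. Lama3 was at 147.8, 86.4, 115.0 and 76.3 CPM in untreated control wall and at 8.56, 4.52, 34.7 and 8.56 CPM in control epithelial cells. Its groups did not overlap, and it was 6.53-fold lower in controls (log2 -2.71, SE 0.62, adjusted p = 0.00248) and 7.75-fold lower in transgenic mice (log2 -2.95, SE 0.62, adjusted p = 0.00122).

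Lamb3 (chromosome 1, 193301994 to 193343878, plus strand), the beta chain of the epithelial laminin, depended on single libraries. It was at 235.2, 189.6, 243.5 and 130.7 CPM in untreated control wall and at 47.0, 52.1, 217.2 and 73.3 CPM in control epithelial cells. In transgenic mice it was at 302.6, 303.5, 345.2 and 177.2 CPM in wall and at 302.8, 117.6, 62.6 and 127.0 CPM in epithelial cells. The high epithelial values are those of control replicate 3 and transgenic replicate 1, the libraries that stood apart. Of the epithelial libraries, they had the highest epithelial marker sums (39486.0 and 42958.5 CPM) and the lowest fibroblast marker sums (7.92 and 23.1 CPM). With all libraries the log2 fold changes were -0.84 (SE 0.48, adjusted p = 0.185) and -0.73 (SE 0.48, adjusted p = 0.231). Without these libraries they were -1.68 (adjusted p = 0.000166) and -1.36 (adjusted p = 0.000721), so that Lamb3 was then lower in both genotypes. That fit keeps only the 6 epithelial libraries whose epithelial marker sums lay below every untreated wall library. It cannot be read as the better estimate for epithelium. Lama3 was also highest in control replicate 3 and transgenic replicate 1, at 34.7 and 34.5 CPM against 3.81 to 13.8 CPM in the other 6. Lama3 made up 11% to 91.4% of laminin alpha TPM in control epithelial libraries, against 29.5% to 55.4% in untreated control wall.

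**Figure D2:**
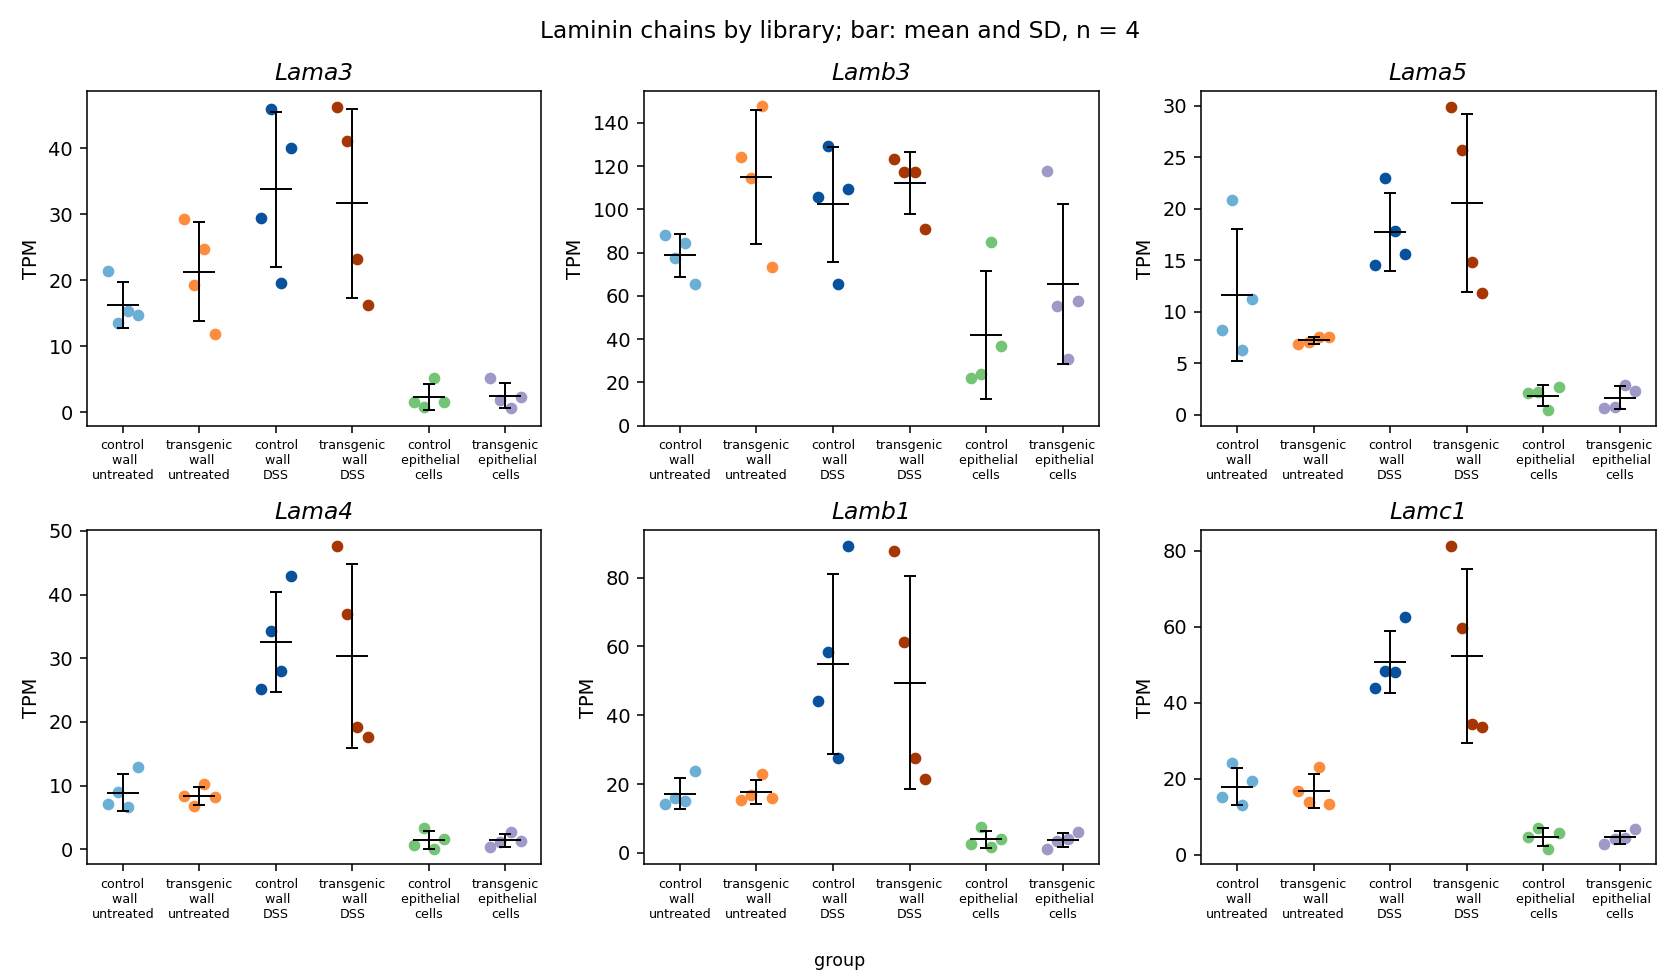
TPM of 6 laminin chains (panels) in each library (points) by group (x axis), with the mean and SD (n = 4). Lama3, Lamb3 and Lama5 (top) and Lama4, Lamb1 and Lamc1 (bottom) have lower means in epithelial cells than in wall, and Lamb3 has 1 high epithelial library in each genotype, at 85.0 and 117.9 TPM.

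**Figure D3:**
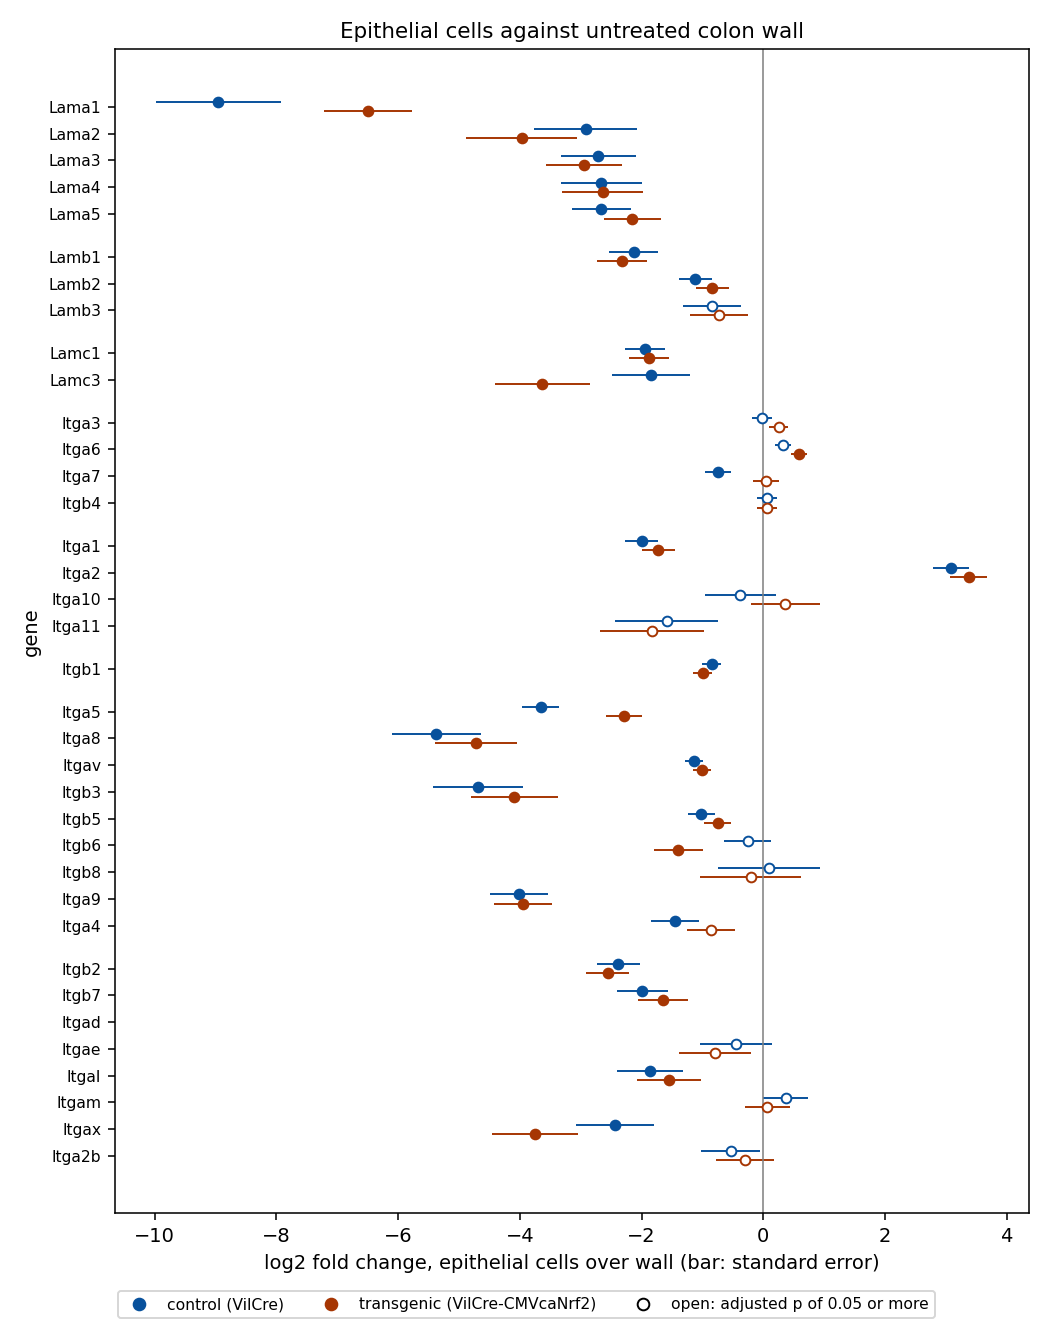
Log2 fold change of epithelial cells over untreated wall (x axis) for 36 members (y axis; Itgad was not tested and has no point), with its standard error, in control and transgenic mice. Filled points passed the test. Itga2 stands alone on the right at 3.08 and 3.37, and Lama1, fitted from at most 1 epithelial count per group, lies farthest left.

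DSS was compared with no treatment in the wall of each genotype. In controls 25 of 36 tested members rose and none fell, against 23.1% of all 16074 tested genes higher and 16.1% lower (39.2% called). The median log2 fold change was 0.80 over the members and 0.06 over all tested genes. In transgenic wall 26 of 36 rose and none fell, against 23.1% and 18.1% of all tested genes (41.2% called), with medians of 1.01 and 0.01. Of the 11 laminins, 9 rose in each genotype. Of the 9 receptor subunits for fibronectin, other RGD ligands and cell adhesion proteins, 7 rose in controls and 8 in transgenic wall. Of the 4 laminin receptor subunits, 3 rose in each genotype, and of the 4 collagen receptor subunits 2 rose in controls and 1 in transgenic wall.

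The laminin chains of vessels, muscle and stroma rose in both genotypes. Lama4 (chromosome 10, 38965515 to 39110188, plus strand), the alpha chain of vessel basement membranes, was at 28.3, 33.3, 28.7 and 38.5 CPM in untreated control wall and at 77.0, 108.8, 95.4 and 132.9 CPM with DSS. In transgenic wall it was at 30.3, 26.7, 35.8 and 29.8 CPM untreated and at 124.3, 110.9, 66.3 and 71.3 CPM with DSS. The groups did not overlap, and Lama4 rose 3.41-fold in controls (log2 1.77, SE 0.22, adjusted p = 9.2e-05) and 3.10-fold in transgenic wall (log2 1.63, SE 0.22, adjusted p = 0.000106). Lama2, the alpha chain of muscle basement membranes, was at 10.7, 14.1, 11.3 and 12.4 CPM untreated and 28.0, 44.8, 24.9 and 40.7 CPM with DSS in controls, again without overlap. It rose 3.03-fold in controls (adjusted p = 0.000197) and 2.57-fold in transgenic wall (adjusted p = 0.000444). Lama1, an alpha chain best known from embryonic basement membranes, rose most among the laminins but from a low level, from 1.65, 1.63, 1.29 and 1.93 CPM to 5.70, 8.70, 6.64 and 15.3 CPM in controls. This was a 5.93-fold rise (log2 2.57, SE 0.44, adjusted p = 0.000563), with 4.33-fold in transgenic wall (log2 2.11, SE 0.43, adjusted p = 0.00149).

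The shared partner chain Lamc1 (chromosome 1, 153218922 to 153332786, minus strand) was at 76.7, 112.2, 71.7 and 73.5 CPM in untreated control wall and at 169.9, 194.4, 206.5 and 244.9 CPM with DSS. It rose 2.60-fold in controls (log2 1.38, SE 0.22, adjusted p = 0.000348) and 2.68-fold in transgenic wall (log2 1.42, SE 0.22, adjusted p = 0.000217). Lamb1 rose 2.91-fold in controls (adjusted p = 0.00188) and 2.33-fold in transgenic wall (adjusted p = 0.00705), with DSS values that ranged widely, from 89.5 to 264.1 CPM in controls and from 83.1 to 218.1 CPM in transgenic wall. Lamb2, the beta chain of muscle and nerve, rose 1.63-fold in controls (adjusted p = 0.00391) and 2.42-fold in transgenic wall (adjusted p = 8.89e-05). Lamc3, at 0.438 to 1.15 TPM in the group means of wall, rose in both genotypes, but the control call was lost without untreated replicate 3, without DSS replicate 4 and without the 4 wall libraries numbered 4 (highest adjusted p = 0.0735). Lama5, the alpha chain under mature epithelium, rose 2.42-fold in transgenic wall (adjusted p = 0.00229) but was not called in controls (log2 0.49). Untreated control replicate 2 was at 145.7 CPM for Lama5 and its 3 companions at 52.2 to 63.9 CPM, and without that library the control log2 fold change was 0.93 (adjusted p = 0.00457).

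Of the chains of the epithelial laminin, Lama3 rose in controls and Lamb3 was not called. Lama3 rose 1.83-fold in controls (log2 0.87, SE 0.30, adjusted p = 0.0281) and was not called in transgenic wall (log2 0.35). The control call for Lama3 was lost in 6 of the alternative fits (highest adjusted p = 0.0977). Lamb3 had log2 fold changes of 0.20 (SE 0.21, adjusted p = 0.482) and -0.20 (SE 0.21, adjusted p = 0.459). Within laminin beta TPM, the share of Lamb3 was 69.2% ± 8.13 in untreated control wall and 54.3% ± 5.90 with DSS, while that of Lamb1 was 15.1% ± 4.07 and 28.0% ± 7.71 (SD, n = 4). In transgenic wall the share of Lamb3 was 78.0% ± 4.56 untreated and 58.2% ± 9.98 with DSS.

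Of the laminin receptor subunits, Itga3, Itga7 and Itgb4 rose with DSS in both genotypes. Itga3 was at 149.8, 175.3, 151.4 and 151.3 CPM in untreated control wall and at 204.5, 207.3, 187.4 and 189.8 CPM with DSS. In transgenic wall it was at 130.5, 119.4, 145.7 and 163.2 CPM untreated and at 228.2, 244.2, 274.1 and 203.0 CPM with DSS. These small differences came with little spread, and Itga3 rose 1.33-fold (adjusted p = 0.0168) and 1.72-fold (adjusted p = 0.000326). The control call was lost without untreated control replicate 3 or 4 (highest adjusted p = 0.103). Itga7, the laminin receptor subunit of muscle, rose 1.54-fold in controls (adjusted p = 0.0242) and 2.18-fold in transgenic wall (adjusted p = 0.000749), and its control call was lost without untreated replicate 1 or 3 or DSS replicate 3 (highest adjusted p = 0.115). Itgb4 rose 1.43-fold and 1.38-fold (adjusted p = 0.0311 and 0.0491), but the call was lost in 8 of the alternative fits in controls and 10 in transgenic wall. Its partner Itga6 was the member with the most negative fitted value in controls: it was at 186.7, 207.8, 224.2 and 183.7 CPM untreated and at 164.0, 138.6, 59.7 and 129.4 CPM with DSS. The 4 DSS libraries lay below the untreated ones, and the log2 fold change was -0.63 (SE 0.27, adjusted p = 0.0796). DESeq2 called it (log2 -0.69, adjusted p = 0.0408), and in transgenic wall it was -0.05. The epithelial markers (12 genes measured) had 3 lower and none higher in controls with DSS, with sums of 17402.6 to 30575.6 CPM untreated and 17711.5 to 20360.2 CPM with DSS. Their part in the Itga6 values was not tested.

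Itgb1 rose 1.65-fold in controls (adjusted p = 0.00354) and 1.75-fold in transgenic wall (adjusted p = 0.00163). Its DSS libraries ran from 595.9 to 909.6 CPM and its untreated ones from 378.9 to 530.4 CPM. Itga1 (chromosome 13, 114958081 to 115101964, minus strand), a receptor subunit for basement membrane collagen found on muscle, fibroblasts and vessels, was at 54.5, 62.1, 52.5 and 62.9 CPM in untreated control wall and at 106.7, 102.1, 119.9 and 75.0 CPM with DSS. In transgenic wall it was at 47.6, 30.2, 35.2 and 36.4 CPM untreated and at 134.4, 109.3, 79.9 and 96.5 CPM with DSS. It rose 1.84-fold in controls (log2 0.88, SE 0.18, adjusted p = 0.00187) and 2.87-fold in transgenic wall (log2 1.52, SE 0.19, adjusted p = 6.35e-05), where it had the smallest adjusted p of the members. The epithelial collagen receptor subunit Itga2 was not called in either genotype, although it was in transgenic wall without DSS replicate 4 (log2 1.18, adjusted p = 0.0244).

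Itgav (chromosome 2, 83724397 to 83806916, plus strand) was at 44.2, 48.8, 47.5 and 43.2 CPM in untreated control wall and at 73.2, 126.0, 76.6 and 97.7 CPM with DSS. It rose 2.16-fold in controls (log2 1.11, SE 0.21, adjusted p = 0.000986) and 2.53-fold in transgenic wall (log2 1.34, SE 0.21, adjusted p = 0.000254). Its beta partners did not all move alike. Itgb3 rose 2.38-fold and 2.96-fold (adjusted p = 0.00592 and 0.00147), and Itgb5 rose 1.60-fold and 1.94-fold (adjusted p = 0.00864 and 0.00101). Itgb8, the partner that with Itgav binds latent TGF-beta, rose 5.45-fold and 5.97-fold (adjusted p = 0.00999 and 0.00754) from 0.317 to 1.69 CPM in untreated wall. Its DSS values in transgenic wall were 16, 6.13, 1.73 and 1.30 CPM, and the call there was lost without replicate 1 (adjusted p = 0.0556). Itgb6, the epithelial partner of Itgav, was at 27.6, 20.8, 34.9 and 19.6 CPM untreated and 28.2, 53.3, 25.4 and 38.5 CPM with DSS in controls. In transgenic wall it was at 48.6, 63.9, 44.5 and 24.8 CPM untreated and at 35.2, 33.3, 23.9 and 21.4 CPM with DSS. Its log2 fold changes were 0.59 (SE 0.28, adjusted p = 0.101) and -0.64 (SE 0.28, adjusted p = 0.0746), of opposite sign, and neither was called. DESeq2 called the fall in transgenic wall (log2 -0.67, adjusted p = 0.049), and without untreated transgenic replicate 4 it was -0.88 (adjusted p = 0.017).

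Subunits of leukocytes and platelets rose in part. Itgam, the alpha subunit of macrophages and neutrophils, was at 4.68, 4.17, 5.05 and 3.33 CPM in untreated control wall and at 11.3, 19.4, 7.77 and 33.9 CPM with DSS. It rose 4.49-fold in controls (log2 2.17, SE 0.44, adjusted p = 0.00156) and 3.17-fold in transgenic wall (log2 1.66, SE 0.43, adjusted p = 0.0068). Its partner Itgb2 rose 2.28-fold and 2.11-fold (adjusted p = 0.0129 and 0.0205), and Itga2b, the platelet subunit that pairs with Itgb3, rose 2.75-fold and 2.74-fold (adjusted p = 0.00984 and 0.00997). The Itgb2 call was lost without control DSS replicate 4 (adjusted p = 0.0541), and in transgenic wall without untreated replicate 4 or DSS replicate 1 or 2 (highest adjusted p = 0.0657). The T cell and dendritic cell subunits Itgal, Itgae and Itgax were called in neither genotype by edgeR with all libraries. Itgax was called in controls without DSS replicate 3 (log2 0.85, adjusted p = 0.0499). Itgal was called in transgenic wall without DSS replicate 4 (log2 1.22, adjusted p = 0.0342) and by DESeq2 (log2 1.03, adjusted p = 0.0352). Itgb7, the gut-homing partner of Itga4 and Itgae, was called in transgenic wall (1.81-fold, adjusted p = 0.0453) and lost in 8 of the alternative fits there, while Itga4 rose in both genotypes.

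Markers of several cell types moved with these rises. Endothelial markers (8 of 8 higher in each genotype, none at 0) summed to 105.6 to 152.6 CPM in untreated wall and 259.6 to 354.3 CPM with DSS. Fibroblast markers (8 of 8 higher in each genotype, none at 0) summed to 1058.7 to 1325.0 CPM untreated and 1981.5 to 4025.5 CPM with DSS. Macrophage and monocyte markers (7 of 7 higher, none at 0) summed to 192.9 to 313.2 CPM untreated and 372.8 to 1031.6 CPM with DSS. Neutrophil markers (5 of 5 higher in controls, 4 of 5 in transgenic wall) summed to 7.10 to 10.8 CPM untreated and 18.5 to 48.6 CPM with DSS. Markers of enteric glia and neurons were higher for 6 of 7 genes in controls and 7 of 7 in transgenic wall, and sums ran from 35.7 to 96.9 CPM untreated and from 69.3 to 179.3 CPM with DSS. Smooth muscle markers were higher for 2 of 8 genes in controls and 3 of 8 in transgenic wall, T cell markers for 4 of 7 and 2 of 7, mast cell markers for 3 of 5 and 2 of 5, platelet markers for 1 of 2 tested and 1 of 2, pan-leukocyte markers for 1 of 5 and 1 of 5, and B and plasma cell markers for 0 of 4 in both. Platelet markers summed to 4.29 to 8.23 CPM in untreated wall, with Gp9 at 0 in the transgenic libraries, and to 4.94 to 14.4 CPM with DSS. Pan-leukocyte markers summed to 55.4 to 189.9 CPM untreated and 102.5 to 271.4 CPM with DSS, and smooth muscle markers to 11721.9 to 16738.6 CPM and 9180.6 to 37335.3 CPM. The part of these cell types in the rise of the laminins and integrins was not tested.

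**Figure D4:**
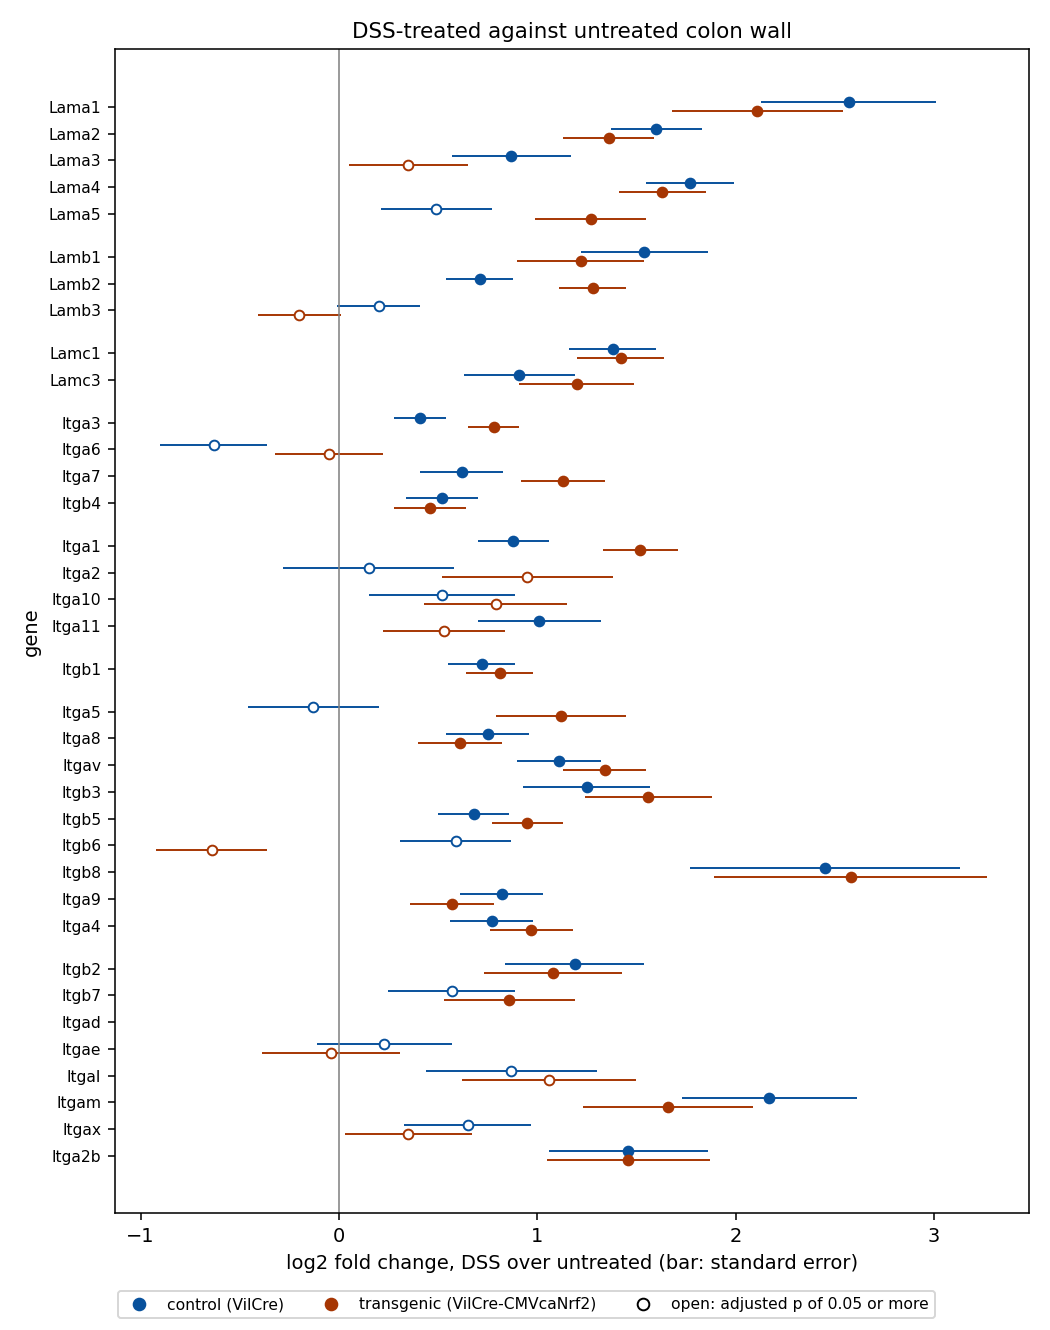
Log2 fold change of DSS-treated over untreated wall (x axis) for 36 members (y axis; Itgad was not tested and has no point), with its standard error, in control and transgenic mice. Filled points passed the test. All filled points lie right of 0, Lamb3, Itga6 and Itgb6 are open, and Lama1 and Itgb8 lie farthest right.

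Other genes of the same matrix and adhesion machinery were followed as lists, to be read against the 23.1% of all tested genes that were higher with DSS in each genotype and the 39.2% and 41.2% that were called. Of 17 other basement membrane components, 13 rose in each genotype and none fell. Nid1, the linker between laminin and collagen networks, rose by a log2 fold change of 1.37 in controls and 1.5 in transgenic wall (SE 0.17, adjusted p = 9.69e-05 and 5.15e-05), and Col4a1, a basement membrane collagen chain, rose by 1.40 and 1.60 (SE 0.19, adjusted p = 0.000136 and 5.49e-05). Of 18 integrin ligands other than laminins, 11 rose in controls and 16 in transgenic wall. Emilin1 rose by 1.69 and 1.85 (SE 0.24, adjusted p = 0.000183 and 8.72e-05) on the log2 scale, and Fn1, the ligand of the Itga5 receptor, rose by 1.14 and 1.61 (SE 0.23, adjusted p = 0.00136 and 0.000132). Of 19 integrin activators and adaptors, 9 rose in each genotype, among them Tln1, the talin that switches integrins on, with 0.71 and 0.93 (SE 0.14, adjusted p = 0.00157 and 0.000243). Of 9 hemidesmosome components and other laminin receptors, 4 rose in controls and 5 in transgenic wall, and 1 fell in each. Col17a1, a hemidesmosome collagen, rose by 1.59 and 1.44 (SE 0.32, adjusted p = 0.00144 and 0.00258), and Rpsa, which also is a component of the ribosome, was the one that fell, with log2 fold changes of -0.99 and -1.01 (SE 0.20, adjusted p = 0.0015 and 0.00123). In control epithelial cells against wall, 11 of 14 tested basement membrane components were lower, against 19.7% of all tested genes, and 1, Nid2, was higher (log2 1.09, SE 0.19, adjusted p = 0.000342). Fermt1, the kindlin of epithelia, was higher in epithelial cells (log2 0.99, SE 0.28, adjusted p = 0.0102), and Fermt2, the kindlin of mesenchymal cells, was lower (log2 -5.40, SE 0.70, adjusted p = 2.35e-05).

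The transgene was compared with VilCre controls in each setting. No member passed the test in epithelial cells (31 tested), in untreated wall (36 tested) or in DSS-treated wall (36 tested) with edgeR, against 0%, 0.224% and 0.0933% of all tested genes called. Without the epithelial libraries that stood apart, the count in epithelial cells was still 0 for the members but 835 for all genes. In untreated wall 0.137% of the tested genes were higher and 0.0871% lower. At an unadjusted p under 0.05 there were 0, 7 and 0 members, against 10.4%, 10.5% and 2.53% of all tested genes. DESeq2 called 0, 1 and 0 members in the same order, against 215, 235 and 43 of all genes. The median log2 fold changes of the members were 0.02 in epithelial cells and -0.09 in untreated wall. In epithelial cells the members with the smallest p were Itga2 (log2 -0.33, SE 0.19, adjusted p = 0.621), Itga7 (log2 0.43, SE 0.27, adjusted p = 0.647) and Itgb4 (log2 0.31, SE 0.20, adjusted p = 0.662). In DSS-treated wall they were Itga3 (log2 0.23, SE 0.13), Itgb6 (log2 -0.38, SE 0.28) and Itgb4 (log2 0.23, SE 0.18), each with an adjusted p of 1.0. Itgb1, whose promoter is shown above with the antioxidant response element core, had a log2 fold change of -0.26 in epithelial cells (SE 0.21, adjusted p = 0.753).

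In untreated wall, the smallest p values belonged to Itga1, Itga5 and Itgb6. Itga1 was at 52.5 to 62.9 CPM in control wall and at 30.2 to 47.6 CPM in transgenic wall, without overlap, and its log2 fold change was -0.61 (SE 0.18, adjusted p = 0.211). Of the 36 members with 80 or more counts, 3 were lower and 1 higher in transgenic wall without overlap. Of all genes with that many counts, 3.85% were lower and 2.96% higher in this way. Itga6 was among the 3 lower members. Itga5 was at 457.3, 478.9, 407.9 and 176.6 CPM in control wall and at 192.3, 165.1, 186.0 and 154.2 CPM in transgenic wall. Of the control libraries 3 lay far above all transgenic ones, and replicate 4 lay among them. Its log2 fold change was -1.09 (SE 0.33, adjusted p = 0.218). It was -1.32 (adjusted p = 0.0371) without control replicate 4, -1.28 (adjusted p = 0.0254) without the 4 wall libraries numbered 4, and -1.12 (adjusted p = 0.0486) with DESeq2. Itgb6 had a log2 fold change of 0.84 (SE 0.28, adjusted p = 0.247), and the epithelial laminin chain Lamb3 had 0.53 (SE 0.21, adjusted p = 0.379). Smooth muscle marker sums were at 13429.6 to 16738.6 CPM in control and 11721.9 to 13762.3 CPM in transgenic untreated wall, with 0 of 8 genes called, and their part in the Itga1 and Itga5 values was not tested.

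Whether DSS acted differently in the 2 genotypes was tested directly, and the difference was called for no member by edgeR, and for 0% of all tested genes. At an unadjusted p under 0.05 there were 4 of 36 members, against 7.96% of all tested genes: Itgb6 (log2 difference, transgenic minus control, -1.23, SE 0.39, adjusted p = 0.47), Itga5 (1.25, SE 0.47, adjusted p = 0.52), Itga1 (0.64, SE 0.26, adjusted p = 0.563) and Lamb2 (0.57, SE 0.23, adjusted p = 0.568). With DSS, Itga5 was at 304.0, 259.4, 548.8 and 181.9 CPM in control wall and at 273.0, 277.2, 380.8 and 562.1 CPM in transgenic wall, so that the genotypes overlapped. Within transgenic wall Itga5 rose 2.17-fold with DSS (adjusted p = 0.0139), a call that was lost without transgenic DSS replicate 4 (adjusted p = 0.0544), and in controls its log2 fold change was -0.13. Each of these comparisons uses the untreated libraries of its genotype, so a low or high untreated group enters both the transgene effect and the DSS effect. A difference in transgene effect from epithelium to untreated wall was also called for no member and for 0% of all tested genes, with 2 of 36 members and 7.98% of all tested genes at an unadjusted p under 0.05. The 2 were Itga5 (log2 1.37, SE 0.39, adjusted p = 0.409) and Itga7 (log2 0.79, SE 0.30, adjusted p = 0.532).

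**Figure D5:**
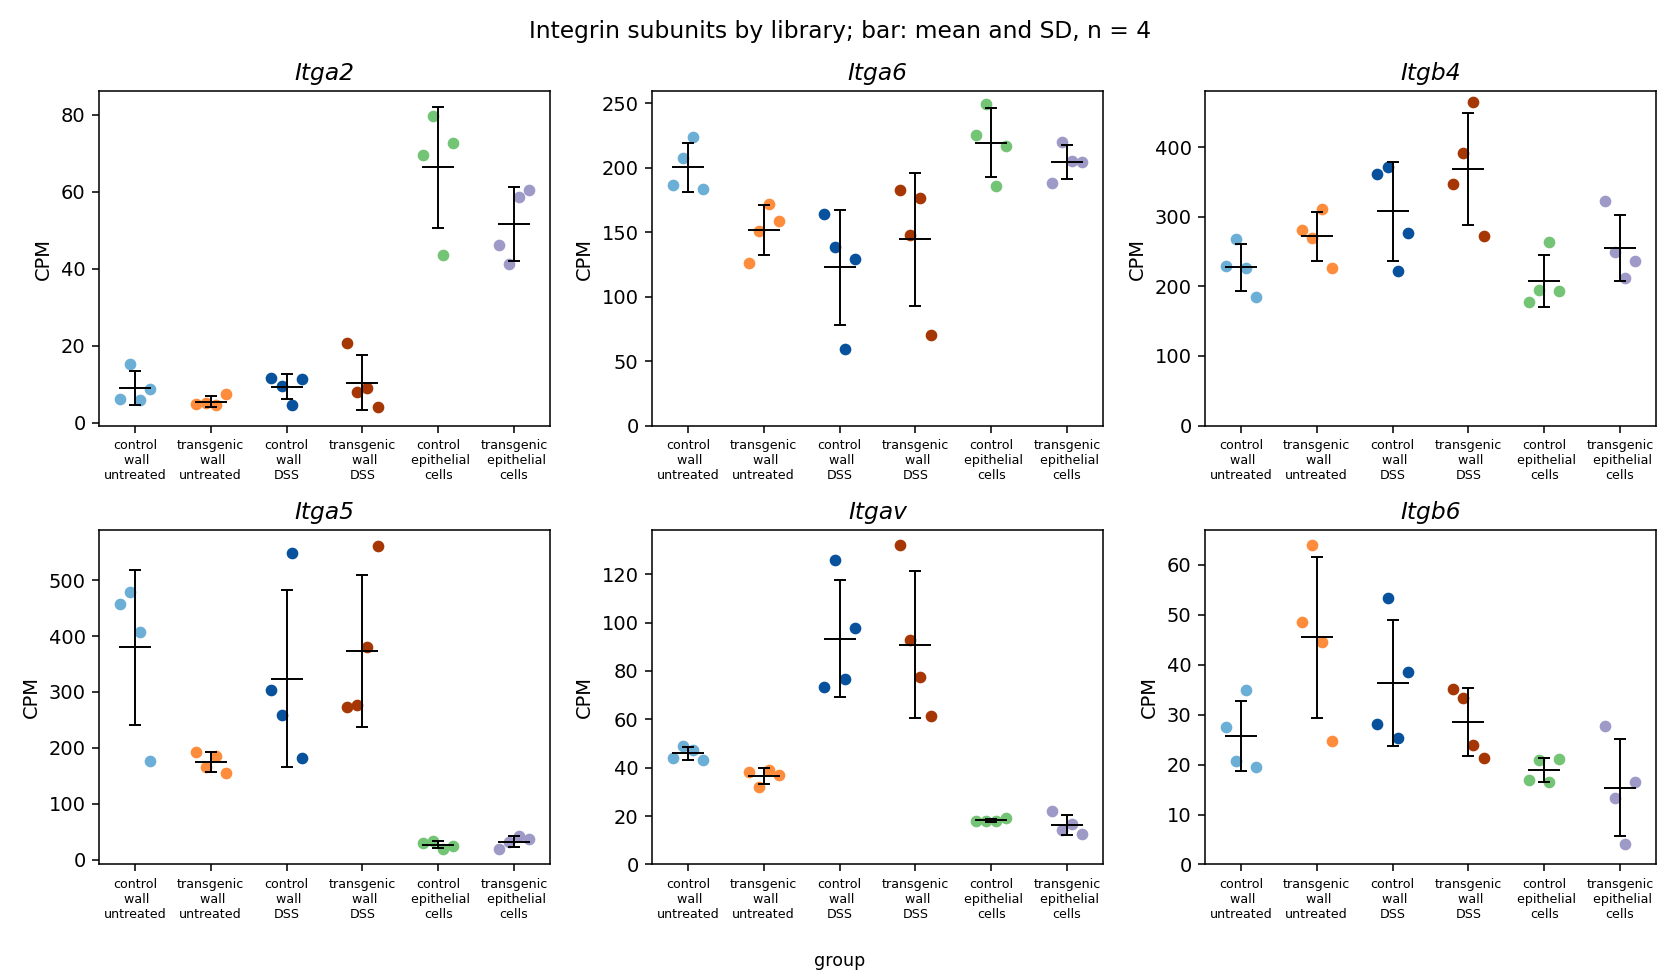
CPM of 6 integrin subunits (panels) in each library (points) by group (x axis), with the mean and SD (n = 4). Itga2 is high in the 8 epithelial libraries, Itga5 is low there and varies between 154.2 and 562.1 CPM in wall, and Itgav is higher in every DSS-treated wall library than in any untreated one.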

How the data were processed

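Each file holds, per the file headers, values for 30383 RefSeq transcripts that the authors estimated; the submitters' processing notes name RSEM 1.2.11, FastQC and mm10. The aligner and strand setting are not stated in the sources used here. Whether reads of overlapping genes of opposite strands were told apart is therefore not known. Such overlaps were those of Itga4 with Cerkl, Itga7 with Mettl7b, Itga8 with E030013I19Rik, Itgb4 with Galk1, and Itgad with Cox6a2 and 4931431B13Rik. The deposited expected counts (39.2% not whole) were summed per gene symbol (46 transcripts for the 37 members) and rounded. The deposited TPM were summed likewise, and the authors' posterior TPM served only as an alternative for shares. CPM are counts scaled to the TMM library size, with one scaling over all 24 libraries.

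edgeR 4.0.16 (R 4.3.3, limma 3.58.1) ran its quasi-likelihood F test with TMM, filterByExpr by group and Benjamini-Hochberg adjustment over all genes tested, with a threshold of 0.05. The fits took the 8 epithelial libraries (12941 genes), the 16 wall libraries (16074) and the 8 epithelial with the 8 untreated wall libraries (15073). Itga8, Itga11, Lama1, Lama2 and Lamc3 as well as Itgad were too low for the first fit. The standard error (SE) was taken from the size of the log2 fold change and its F statistic (change over root F). All 36 within-group pairs of libraries differed by more than sampling noise. The steps were tested on simulated counts. The values of 1 member are not reported here, and counts over the members include it. Alternatives were DESeq2 1.42.0, other size factors, no count filter, the replicate number as a block, thinned wall libraries and leaving out libraries. Of 52 same-numbered pairs of libraries, 8 had a correlation of deviations over 0.1, where a pair held by several fits is counted in each. Such correlations cannot exclude that equal numbers share animals or days.

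The members, the lists of companion and marker genes and the tests were chosen with earlier results of these data known. In each comparison, members past the threshold were named by smallest adjusted p, up to 8 in each direction, or the 3 with the smallest p where none passed; companion genes were drawn by adjusted p, up to 3 per list and direction, and partners of named members were added. Other members and genes named were chosen after their values were seen.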

Additional observations from a re-analysis of the deposited data

Results flagged for a closer look

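In groups of 4 libraries, 17 of 194 tested groups (8.8%) held a library whose distance from the nearest of the others, relative to the range of the group, passed Dixon's critical value for 4 samples; chance flags about 1 in 20. All values are CPM. Control epithelial replicate 3 was highest for Lamb3 (217.2), Lama3 (34.7) and Itgb5 (55.8), and control epithelial replicate 4 for Itgav (19.2). Untreated control wall replicate 2 was highest for Lama5 (145.7), Lamc1 (112.2), Itga3 (175.3) and Itga2b (2.36), and untreated control wall replicate 4 for Itgb3 (48.4) and Itga11 (3.52). Untreated transgenic wall replicate 4 was highest for Itga2 (7.57). With DSS, control wall replicate 3 was highest for Itga7 (114.8) and control wall replicate 1 lowest for Itgb5 (86.2). Transgenic DSS-treated wall replicate 1 was highest for Itgam (27.2), replicate 2 highest for Lamc3 (5.53) and replicate 4 lowest for Itga10 (1.91). Transgenic epithelial replicate 4 was highest for Itgal (3.53). No cause was tested.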

How the results depend on the processing

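The count of members called for the transgene in untreated wall, 0, became 1 with DESeq2 and 1 without the 4 wall libraries numbered 4. It ran from 0 to 1 when single libraries were left out (1 without control replicate 4). The member was Itga5 each time, and the cause was not tested. Of all genes, edgeR called 36 with all libraries and DESeq2 called 235. Without the 4 wall libraries numbered 4 edgeR called 404, and without control replicate 4 it called 320. Leaving out single libraries gave 18 to 25 called members for DSS in controls and 20 to 26 for DSS in transgenic wall. In the same fits 4952 to 6784 and 4975 to 7197 of all genes were called, against 6300 and 6626 with all libraries. For epithelial cells against wall, 24 to 26 members were called in each genotype, and the other comparisons stayed at 0. With all libraries, 5821 and 6558 of all genes were called for epithelial cells against wall. The counts over all genes in the refits of that comparison are not given here. Of the calls, 17 of 25 (DSS, controls), 18 of 26 (DSS, transgenic) and 24 of 25 (epithelial cells against wall, each genotype) held in every setting run. The exceptions included Itga3, Itga7, Itga8, Itga11, Itgb2, Itgb4, Lama3 and Lamc3 in controls, Itga5, Itga8, Itga9, Itgb2, Itgb4, Itgb7 and Itgb8 in transgenic wall, and Lamc3 and Itgal between tissues. With the replicate number as a block the counts were 25 and 22 for DSS and 24 and 26 between tissues, and 0 elsewhere. For DSS, 5546 and 6027 of all genes were called with the block. In 9 of 52 same-numbered pairs, with a pair counted in each fit that held it, the library correlated best with its own number. Wall libraries thinned to the epithelial depth gave 25 in each genotype. No fitted direction of a called member reversed. In epithelial cells 6 of 37 members had too few counts to be tested within them.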
